A study of Mus musculus with 8 samples.

Results

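The 8 genes described here are known targets of the liver X receptors (LXR) in cholesterol export, sterol-linked protein turnover, phospholipid remodelling and lipoprotein handling. They are Abca1, Abcg1, Mylip, Lpcat3, Rnf145, Apoe, Pltp and Lpl, 8 of the 24888 genes of the count table. They were chosen by name from LXR targets whose levels in these same 8 libraries were already known, so their levels and ratios are a description and carry no test. The series holds 8 bulk RNA libraries, a single one for each group, of cells that go back to the mouse embryonic stem cell (ESC) line E14.

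Untreated ESC were grown with LIF, an inhibitor of GSK3 (CHIR99021), an inhibitor of MEK (PD0325901) and fetal bovine serum. Expanded potential stem cells (EPSC) came from them over 5 passages in knockout serum replacement with the same additions and 4 further inhibitors, so cell state and medium cannot be told apart. ESC + T09 and EPSC + T09 are the same cells after 3 days with T0901317 (T09), a synthetic LXR agonist, whose dose the labels give in an unclear unit. The siNT and siNr1h2 libraries are day 2 blastoids, aggregates of EPSC that model the blastocyst, harvested 48 hours after transfection with a non-targeting siRNA or one against Nr1h2. Type I and Type III are day 5 blastoids picked by hand, both derived from EPSC treated with T09. The labels list no T09 in the blastoid medium. With 1 library per group, no difference between 2 libraries can be set against the spread between cultures, and each 95% interval below covers counting error only.

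LXR alpha and LXR beta are nuclear receptors that bind DNA as partners of the retinoid X receptors and are switched on by oxysterols, oxidised forms of cholesterol. Their textbook output in macrophages and liver is the removal of surplus cholesterol: the transporters ABCA1 and ABCG1 load it onto apolipoproteins and high-density lipoprotein, while the ubiquitin ligase encoded by Mylip limits lipoprotein uptake. The receptors also induce Srebf1 and the enzymes of fatty acid synthesis.

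Total counts ran from 24666260 to 40781415 per library, and the 8 genes were counted 53 to 129137 times in a library, above the minimum of 20 counts used below in each of them. Nr1h2, the gene of LXR beta and target of the siRNA, stood at 53.9 CPM (counts scaled to library size, with edgeR's TMM factors) in siNT and 37.7 in siNr1h2, a log2 ratio of -0.51 (-0.62 to -0.40). In the other 6 libraries it stood between 52.6 and 92.0 CPM. Nr1h3, the gene of LXR alpha, did not exceed 1.22 CPM in any library. Naive pluripotency markers, 10 of 10 of them detected in each library, summed to 8308 CPM in ESC, 8485 in ESC + T09, 5317 in EPSC and 5691 in EPSC + T09. They summed to 2830 in siNT, 2760 in siNr1h2, 851 in Type I and 1586 in Type III. Fibroblast markers summed to 5.47 to 23.1 CPM and macrophage markers to 6.45 to 24.1, with Ptprc and Adgre1 at 0 in each library. Most of the macrophage sum was Cd68, from 5.99 CPM in siNr1h2 to 22.2 in Type III. Of 3 tested macrophage markers, Csf1r and Cd68 were at least 2-fold higher in both Type I and Type III than in EPSC + T09. Csf1r reached 1.28 CPM in Type I and 0.973 in Type III.

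Promoter sequence was at hand for 6 of the 8 genes, as 10 RefSeq windows of the GRCm38.p6 build that run from 250 bases before to 50 after an annotated start. Abcg1 and Lpl had no entry. The classical LXR element is a direct repeat of the half-site AGGTCA with a spacer of 4 bases, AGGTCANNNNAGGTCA, and both strands were searched for it, for the single half-site, for the GC box GGGCGG and for the TATA box TATAAA. With up to 2 mismatches in the 12 fixed letters, the repeat was in 0 of the 10 windows and in 3.02% of all 32851 windows of the table. With up to 3 mismatches it was in 2 of the 10 windows, from Abca1 and Rnf145, and in 21.9% of all windows, a similar share. Those windows are shown because the 2 genes were both higher with T09 and both matches start with the same 10 letters. The windows of Mylip and Lpcat3, also higher with T09, held no such match. Capitals mark the half-sites of the repeat, the GC boxes and the TATA box.

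Abca1, chr4:53159846-53160145, minus strand: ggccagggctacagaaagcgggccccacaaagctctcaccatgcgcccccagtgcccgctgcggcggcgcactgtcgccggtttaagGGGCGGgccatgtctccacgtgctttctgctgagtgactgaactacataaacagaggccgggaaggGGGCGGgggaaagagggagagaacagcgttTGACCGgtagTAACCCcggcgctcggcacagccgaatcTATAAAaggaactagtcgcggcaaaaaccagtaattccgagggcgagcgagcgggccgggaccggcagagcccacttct
Rnf145, chr11:44520039-44520338, plus strand: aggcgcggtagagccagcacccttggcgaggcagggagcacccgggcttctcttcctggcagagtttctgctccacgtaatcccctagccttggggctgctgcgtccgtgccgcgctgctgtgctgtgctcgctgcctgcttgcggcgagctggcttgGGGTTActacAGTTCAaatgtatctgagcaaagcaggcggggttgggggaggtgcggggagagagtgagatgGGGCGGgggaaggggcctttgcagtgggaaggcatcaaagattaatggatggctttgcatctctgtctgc

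The Abca1 match lay on the opposite strand of the gene with its leftmost base at -67, where -1 is the last base before the start. It differed from the repeat by A1G, C5T and A11C, with positions counted from 1 at the 5′ end of the 16 letters and the letter of the repeat first. The Rnf145 match lay on the gene's own strand at -92 and differed by A1G, C5T and G13T. Their shared first 10 letters, GGGTTActac, stood in 12 of the 32851 windows (0.0365%). Besides Abca1, Rnf145 and Fasn, these were windows of Etaa1, Etaa1os, Gbp2, Gm16244, Gm36460, Gm39456, Kcnip4, Nxpe5 and Stoml3. The Srebf1 window did not hold that stretch. The half-sites of the Abca1 match with any spacer, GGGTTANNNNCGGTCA, stood in 3 windows (0.00913%), those of Abca1, Srebf1 and Fasn. The stretch and the pattern were both looked for after the matches had been seen. The 4 matches are set out here because Srebf1 and Fasn return below among the genes that passed the T09 test. Srebf1 encodes a transcription factor that switches on lipogenic genes, and Fasn the fatty acid synthase itself. Capitals mark the half-sites.

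Abca1: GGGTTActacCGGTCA
Fasn: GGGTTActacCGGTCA
Srebf1: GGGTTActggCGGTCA
Rnf145: GGGTTActacAGTTCA

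The Fasn match was the same in all 16 letters as that of Abca1, at -225 in its window (chr11:120824498-120824797, minus strand), and the Srebf1 match lay at -182 (chr11:60210422-60210721, minus strand). A match is a stretch of letters and not a bound site, and its absence from a window says nothing of the factor. The single half-site was in 0 member windows against 16.3% of all windows. The GC box was in 7 of the 10 windows, from 5 genes (Abca1, Lpcat3, Mylip, Pltp and Rnf145), and in 35.7% of all windows. The Lpcat3 window held 6 copies. The TATA box was in 4 of the 10 windows, from 4 genes (Abca1, Apoe, Mylip and Pltp), and in 13.6% of all windows. The leftmost base of the match was at -29 in Abca1, at -32 in Mylip and at 37 in Pltp, which is after the start. In the Apoe window its matches on the 2 strands, at -96 and -100, overlap.

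Abca1 encodes the transporter that moves cholesterol and phospholipid out of the cell to lipid-poor apolipoprotein A-I. Its level was 51.0 CPM in ESC, 340 in ESC + T09, 18.3 in EPSC and 211 in EPSC + T09. The blastoids held 3.40 CPM in siNT, 5.07 in siNr1h2, 207 in Type I and 5.38 in Type III. The 2 agonist-treated stem cell libraries and Type I were thus the 3 high ones, and the highest level was 99.9 times the lowest. The intervals of EPSC + T09 and Type I overlapped, as did those of Type III and siNr1h2, while the other neighbours in the order of levels were separated by more than counting error. Abca1 had the widest range of the 8 genes.

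Abcg1 encodes the transporter that passes cholesterol on to high-density lipoprotein. It stood at 6.72 CPM in ESC, 103 in ESC + T09, 1.86 in EPSC and 60.2 in EPSC + T09. In the blastoids it was 2.95 CPM in siNT, 3.24 in siNr1h2, 18.7 in Type I and 1.61 in Type III. The order of the top 3 libraries was that of Abca1, but Abcg1 in Type I was well under its level in EPSC + T09, where Abca1 was not. The levels in EPSC and Type III overlapped within counting error, as did those of the 2 day 2 libraries. The 1.61 CPM of Type III rest on 53 counts, the lowest count of any of the 8 genes.

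Mylip encodes an E3 ubiquitin ligase, that lowers the uptake of lipoproteins. Its level was 6.36 CPM in ESC, 29.4 in ESC + T09, 1.83 in EPSC and 19.5 in EPSC + T09. Among the blastoids it was 7.04 CPM in siNT, 5.84 in siNr1h2, 52.0 in Type I and 20.2 in Type III. Type I was the highest library, and Type III stood with EPSC + T09 rather than with the untreated cells. Its levels spanned a 28.4-fold range.

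Rnf145 encodes a ubiquitin ligase of the endoplasmic reticulum that takes part in sterol sensing. It stood at 87.9 CPM in ESC, 152 in ESC + T09, 59.0 in EPSC and 121 in EPSC + T09. Blastoid levels were 86.4 CPM in siNT, 85.5 in siNr1h2, 132 in Type I and 67.0 in Type III. The 3 highest libraries were those of Abca1 and Abcg1, but the whole range was 2.58-fold, and ESC and the day 2 libraries overlapped.

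Lpcat3 encodes the acyltransferase that puts polyunsaturated fatty acids into membrane phospholipids. Its level was 82.9 CPM in ESC, 157 in ESC + T09, 52.8 in EPSC and 106 in EPSC + T09. The blastoids had 44.5 CPM in siNT, 46.3 in siNr1h2, 242 in Type I and 109 in Type III. As for Mylip, Type I was highest and Type III overlapped EPSC + T09. Exons of Lpcat3 overlap those of Emg1 on the opposite strand, and the strand setting of the counting is not given in the sources used here. The log2 ratio of Emg1 was 0.15 for EPSC + T09 over EPSC, -0.01 for ESC + T09 over ESC and -0.52 for Type I over Type III, where Lpcat3 had 1.00, 0.92 and 1.15. Between the cell states the 2 genes moved alike: EPSC over ESC was -0.52 for Emg1 and -0.65 for Lpcat3 untreated, and -0.36 and -0.57 with T09. The part of Emg1 reads in the Lpcat3 counts was not tested.

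Apoe encodes apolipoprotein E, a protein carried on lipoproteins that guides their uptake. It stood at 299 CPM in ESC, 423 in ESC + T09, 608 in EPSC and 786 in EPSC + T09. In the blastoids it was 768 CPM in siNT, 708 in siNr1h2, 3598 in Type I and 2968 in Type III. Both day 5 libraries stood far above the other 6, and no 2 libraries overlapped within counting error. Apoe made up 33.2% (ESC + T09) to 92.2% (Type III) of the summed CPM of the 8 genes. Markers of primitive and visceral endoderm, a lineage of the blastocyst, summed to 146 to 209 CPM in the 4 stem cell libraries, 2387 in siNT, 2249 in siNr1h2, 7556 in Type I and 5466 in Type III. Of the 13 markers, Foxa2 and Afp were at 0 in ESC, and Foxa2, Afp and Ttr in ESC + T09. Their part in the Apoe levels was not tested, and in bulk RNA more cells of a type and more RNA per cell cannot be told apart.

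Pltp encodes phospholipid transfer protein, which remodels high-density lipoprotein. Its level was 29.1 CPM in ESC, 51.4 in ESC + T09, 52.1 in EPSC and 59.7 in EPSC + T09. Among the blastoids it was 22.5 CPM in siNT, 21.6 in siNr1h2, 50.1 in Type I and 29.8 in Type III. EPSC, ESC + T09 and Type I formed a run of neighbours whose intervals overlapped. Exons of Pltp overlap those of Ctsa on the opposite strand, and in some comparisons, but not in all, Ctsa moved as Pltp did. For EPSC + T09 over EPSC the log2 ratio was 0.24 for Ctsa and 0.20 for Pltp, and for EPSC + T09 over ESC + T09 it was 0.32 and 0.22. For ESC + T09 over ESC it was 0.25 and 0.82, for untreated EPSC over ESC 0.33 and 0.84, and for Type I over Type III 0.25 and 0.75. For siNT over EPSC it was -0.32 and -1.21, and for siNr1h2 over siNT -0.03 and -0.05. Against EPSC + T09 the day 5 blastoids had Ctsa higher and Pltp lower. Type I over EPSC + T09 was 1.73 for Ctsa and -0.25 for Pltp. Type III over EPSC + T09 was 1.48 for Ctsa, with a counting interval of -1.11 to -0.90 for Pltp. The part of Ctsa reads in the Pltp counts was not tested.

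Lpl encodes lipoprotein lipase, which frees fatty acids from the triglycerides of lipoproteins. It stood at 24.4 CPM in ESC, 19.8 in ESC + T09, 50.4 in EPSC and 55.5 in EPSC + T09. Blastoid levels were 21.4 CPM in siNT, 22.3 in siNr1h2, 34.0 in Type I and 16.9 in Type III. Its 2 highest libraries were EPSC with and without T09, as for Pltp, but for Lpl they stood clear of the other 6. Lpl alone of the 8 genes was lower in ESC + T09 than in ESC.

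**Figure D1:**
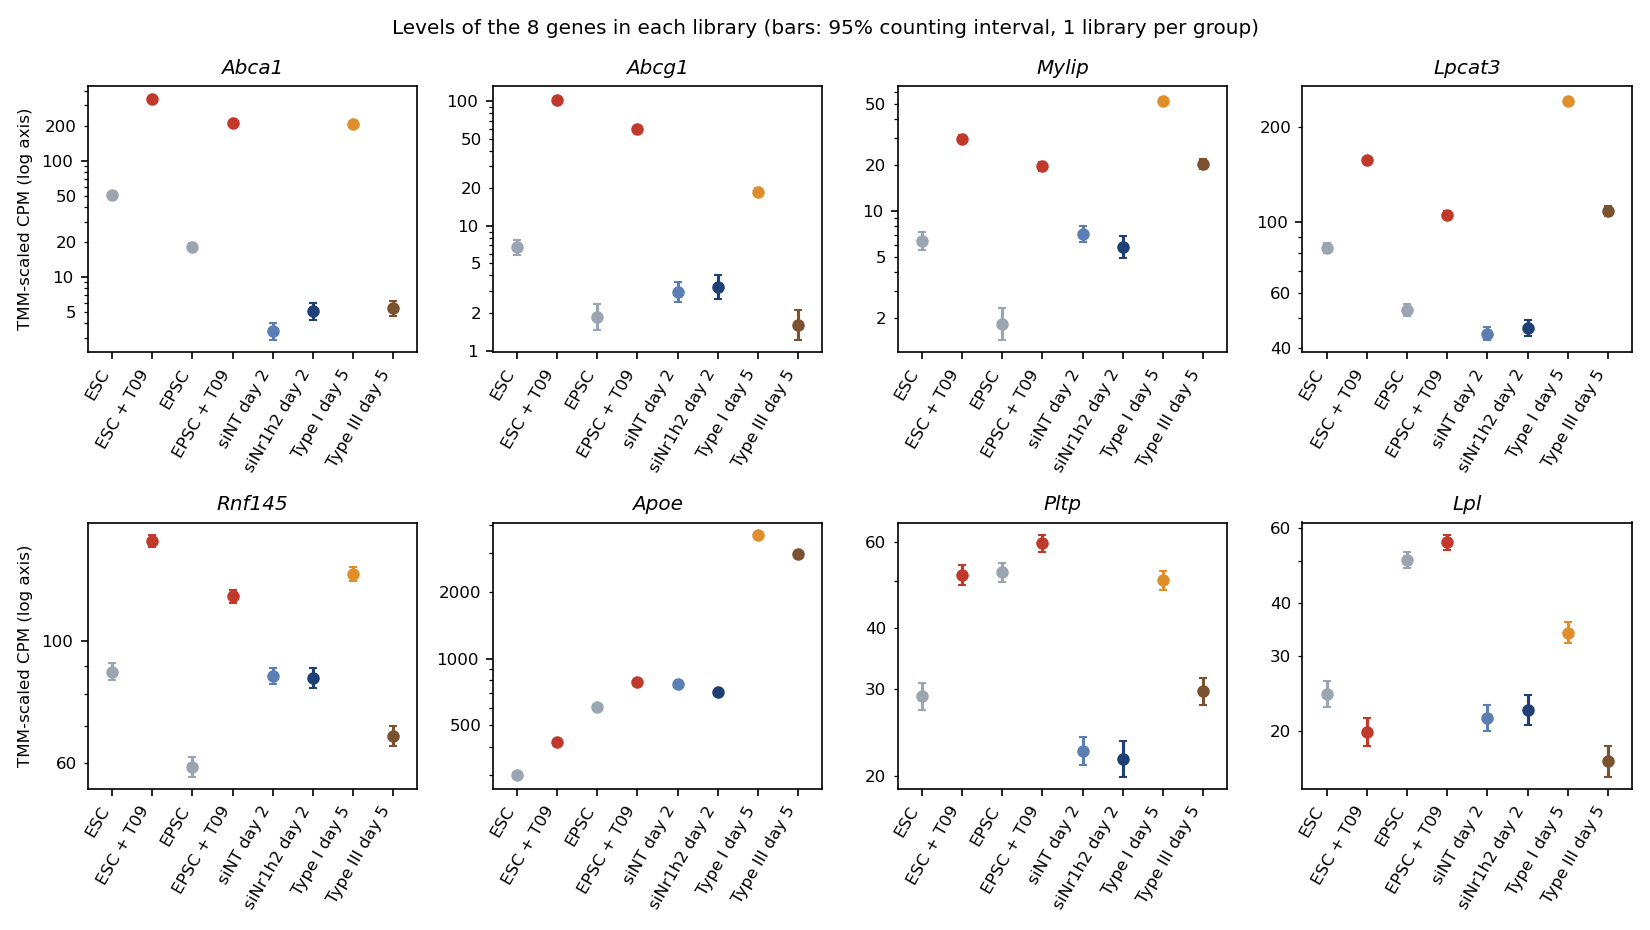
TMM-scaled CPM of each of the 8 genes (log axis, a separate scale per panel) in the 8 libraries; points are single libraries and bars are 95% counting intervals. Abca1 and Abcg1 are high in ESC + T09, EPSC + T09 and Type I, Apoe is highest in the day 5 blastoids, and Lpl is highest in the 2 EPSC libraries.

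The agonist libraries address how the genes differ with an LXR agonist in each stem cell state. A gene was counted as different between 2 libraries when the TMM-scaled ratio (prior count 2) was at least 2-fold, its 95% exact Clopper-Pearson interval excluded a ratio of 1 and 1 library held at least 20 counts. In EPSC + T09 over EPSC, 5 of the 8 genes were higher by that rule and 0 lower, against 0.895% and 3.29% of the 13632 genes examined. Abcg1, with a log2 ratio of 4.98 (4.68 to 5.38), Abca1 with 3.52 (3.42 to 3.64) and Mylip with 3.37 (3.05 to 3.78) were the 3 highest ratios among those genes. Rnf145 (1.03) and Lpcat3 (1.00, 2.001-fold) lay just past the 2-fold line. Apoe (0.37), Pltp (0.20) and Lpl (0.14) lay well under it.

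In ESC + T09 over ESC, 3 of the 8 were higher by the rule and 0 lower, against 1.39% and 2.53% of 13412 genes. These were Abcg1 at 3.92 (3.74 to 4.13), Abca1 at 2.74 (2.66 to 2.81) and Mylip at 2.20 (2.00 to 2.43), which ranked 3, 6 and 13 among them. Lpcat3 (0.92), Pltp (0.82), Rnf145 (0.79) and Apoe (0.50) were above 0 by less than 2-fold. Lpl was at -0.30 (-0.44 to -0.15). The median of the 8 log2 ratios was 0.87 here and 1.02 in EPSC, and that of all genes was 0.01 and -0.00. The genes were picked from known responses, so neither these counts nor the medians support a claim about them. Of 10 naive markers 0 passed 2-fold with T09 in either state. In EPSC + T09 over EPSC the 3 tested of 8 fibroblast markers (Col1a1, Thy1 and Acta2) were at least 2-fold lower. Their list summed to 23.1 CPM in EPSC and 8.10 in EPSC + T09. Most of that sum was Acta2, at 19.3 CPM in EPSC and 6.35 in EPSC + T09. Col1a1 went from 1.70 to 0.815 CPM and Thy1 from 1.49 to 0.667. Of 10 tested endoderm markers Pdgfra was lower. In ESC + T09 over ESC 1 endoderm marker (Dab2) and 1 trophectoderm marker (Gata3) were lower. Their part in the T09 ratios was not tested.

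The ratio was larger in EPSC than in ESC by 1.17 for Mylip, 1.06 for Abcg1 and 0.79 for Abca1 on the log2 scale. For these 3 genes the treated level was nevertheless higher in ESC + T09 than in EPSC + T09, and the untreated level in EPSC was the lower one. The difference was 0.24 for Rnf145 and 0.08 (-0.02 to 0.18) for Lpcat3, and -0.13 for Apoe and -0.62 for Pltp, whose ratios were larger in ESC. For scale, the median absolute difference over 12944 genes was 0.22 and its 90th percentile 0.76. None of these differences can be tested, since each rests on 4 single libraries.

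**Figure D2:**
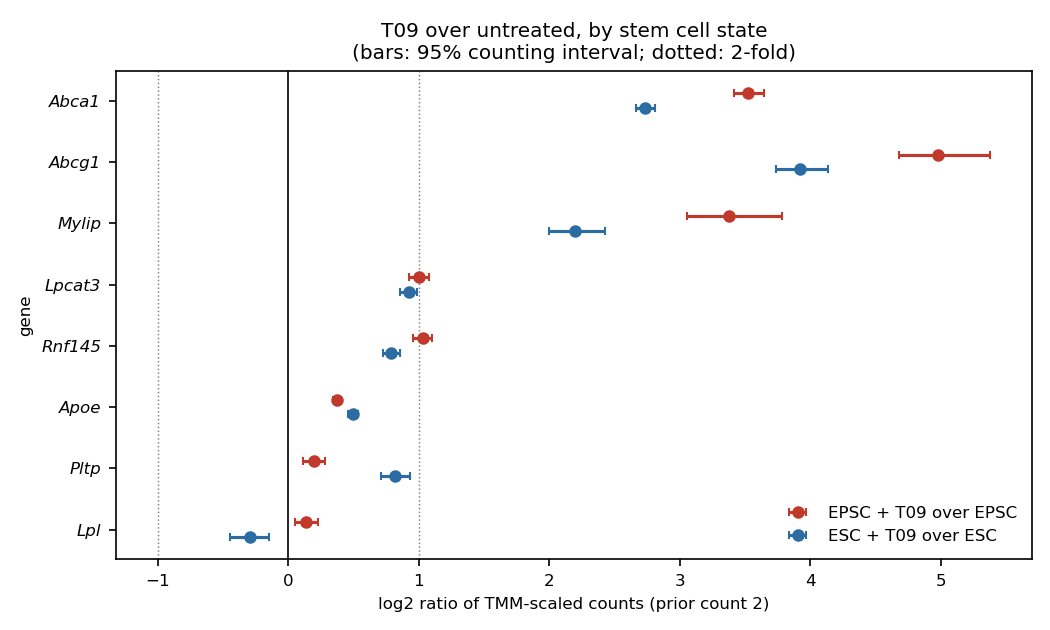
Log2 ratio (horizontal axis) of T09-treated over untreated cells for each of the 8 genes in EPSC (red) and ESC (blue), with 95% counting intervals and dotted lines at 2-fold. Abcg1, Abca1 and Mylip lie far past 2-fold in both states, and Lpl is the gene on different sides of 0.

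Over the 4 stem cell libraries, edgeR's quasi-likelihood fit of state plus treatment gave T09 log2 changes of 4.41 (SE 0.241) for Abcg1, 3.12 (SE 0.177) for Abca1 and 2.75 (SE 0.268) for Mylip. Lpcat3 changed by 0.96 (SE 0.104), Rnf145 by 0.91 (SE 0.110), Pltp by 0.50 (SE 0.162), Apoe by 0.43 (SE 0.105) and Lpl by -0.07 (SE 0.148). Those errors rest on 1 residual degree of freedom and shared variance across genes. Here and below, each SE is the absolute log2 change divided by the square root of the F statistic of edgeR's quasi-likelihood test. At a Benjamini-Hochberg adjusted p under 0.05, 13 of 14477 genes were higher with T09 (0.0898%) and 2 were lower (0.0138%). The test serves below for pathway genes outside the 8.

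EPSC and ESC were compared without and with the agonist. In the untreated pair, Abcg1 (-1.82), Mylip (-1.76) and Abca1 (-1.48) were at least 2-fold lower in EPSC, and Lpl (1.05) and Apoe (1.02, 2.03-fold) at least 2-fold higher. That made 2 of 8 higher and 3 of 8 lower, against 9.58% and 8.05% of 13847 genes. Lpcat3 (-0.65) and Rnf145 (-0.57) were lower and Pltp (0.84) higher by less than 2-fold. Hence the 5 genes of export, ubiquitin ligases and phospholipid remodelling were lower in EPSC, and the 3 genes of secreted lipoprotein proteins were higher, each by more than counting error. That alone sets them little apart, since 39.3% of all genes had an interval above 0 and 34.9% below.

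The treated pair, which is made of other libraries, gave the same signs for all 8 genes. EPSC + T09 over ESC + T09 was -0.77 for Abcg1, -0.69 for Abca1, -0.60 for Mylip, -0.57 for Lpcat3 and -0.34 for Rnf145. It was 1.48 for Lpl, 0.90 for Apoe and 0.22 for Pltp. Only Lpl passed 2-fold, so that 1 of 8 was higher and 0 lower, against 8.35% and 9.79% of 13712 genes. In the fit over the 4 libraries the state term was -1.19 (SE 0.221) for Abcg1, -1.11 (SE 0.259) for Mylip, -1.07 (SE 0.167) for Abca1, -0.62 (SE 0.103) for Lpcat3 and -0.47 (SE 0.109) for Rnf145. It was 1.25 (SE 0.150) for Lpl, 0.95 (SE 0.106) for Apoe and 0.52 (SE 0.162) for Pltp, in a fit where 14.3% of genes were higher and 14.5% lower in EPSC at the same adjusted p. Markers of other cells moved with the state. Endoderm markers were at least 2-fold higher in EPSC for 5 of 8 tested in the untreated pair and 5 of 10 in the treated pair, where 1 was lower. Trophectoderm markers were at least 2-fold lower for 3 of 8 untreated and for 6 of 8 with T09 (median -0.92 and -1.82), where 1 was higher. Naive markers were lower for 2 of 10 and 1 of 10 (median -0.58 and -0.57), with 1 of 10 above 0 in each pair. Their part in these differences was not tested.

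**Figure D3:**
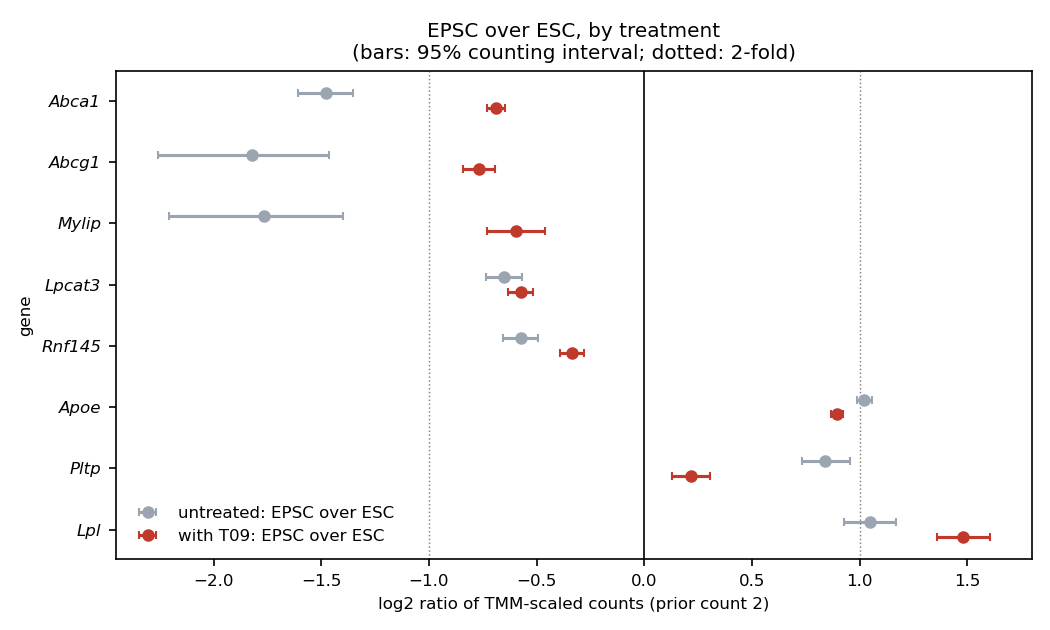
Log2 ratio (horizontal axis) of EPSC over ESC for each of the 8 genes, in untreated cells (grey) and with T09 (red), with 95% counting intervals and dotted lines at 2-fold. Abca1, Abcg1, Mylip, Lpcat3 and Rnf145 lie below 0 in both pairs, and Apoe, Pltp and Lpl above 0 in both.

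The knockdown libraries show the genes in day 2 blastoids with less Nr1h2 RNA. In siNr1h2 over siNT 0 of the 8 genes were higher and 0 lower by the 2-fold rule, against 1.49% and 2.17% of 14127 genes. Abca1 had the largest ratio, 0.57 (0.22 to 0.93), and it was the higher in the knockdown, on 133 and 134 counts from libraries of different depth. Apoe was at -0.12 (-0.14 to -0.09). The intervals of the other 6 included 0: Mylip -0.27 (-0.56 to 0.02), Abcg1 0.13 (-0.28 to 0.55), Lpcat3 0.06, Lpl 0.06, Rnf145 -0.02 and Pltp -0.05. Counting error was widest for Abcg1 and Abca1, followed by Mylip, and narrow for Rnf145 (-0.09 to 0.06) and Lpcat3 (-0.05 to 0.17). With 1 library each, smaller differences cannot be told from the spread between cultures. The median of the 8 was 0.02 and that of all genes -0.01.

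Type I against Type III compares blastoids that the labels trace to the same kind of treated EPSC and that were told apart by eye. Each of the 8 genes was higher in Type I, by more than counting error. Of all genes, 34.2% had an interval above 0 in this pair and 31.9% below. By the 2-fold rule 5 of 8 were higher and 0 lower, against 1.93% and 5.75% of 13907 genes. Abca1, at 7419 counts in Type I and 177 in Type III, had a log2 ratio of 5.25 (5.05 to 5.49), or 38.0-fold, the highest ratio among those genes. Abcg1, at 3.49 (3.13 to 3.97), had rank 4. Mylip (1.36), Lpcat3 (1.15) and Lpl (1.00, 2.003-fold) also passed, and Rnf145 (0.98, 1.976-fold) fell just short. Pltp stood at 0.75 and Apoe at 0.28. The median of the 8 was 1.08 and that of all genes 0.01. Nr1h2 had a ratio of -0.00 (-0.10 to 0.09).

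The makeup of the 2 libraries differed as well. Of the 10 naive markers 7 were at least 2-fold lower in Type I, with a median log2 ratio of -1.21. Of 13 endoderm markers 13 were above 0, none by 2-fold, with a median of 0.46. Trophectoderm markers summed to 1411 CPM in Type I and 1549 in Type III. The part of these shifts in the 8 genes was not tested.

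**Figure D4:**
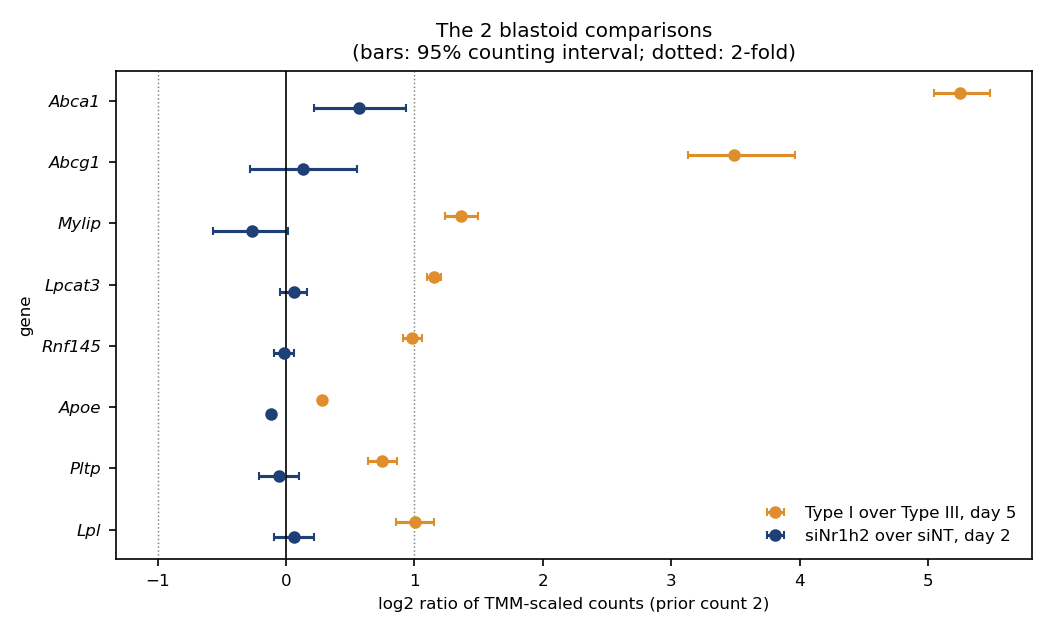
Log2 ratio (horizontal axis) for each of the 8 genes of Type I over Type III blastoids on day 5 (orange) and of siNr1h2 over siNT blastoids on day 2 (blue), with 95% counting intervals and dotted lines at 2-fold. Type I over Type III is above 0 for all 8 genes and reaches 5.25 for Abca1, while siNr1h2 over siNT stays within 2-fold for all 8.

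The blastoids were also set against EPSC. The labels do not say whether the EPSC behind the siRNA blastoids had been treated with T09, nor the dose and time behind Type I and Type III, so siNT against untreated EPSC need not be a comparison with its source. The medium, the days in culture and the cell types change together in these comparisons and cannot be told apart. In siNT over EPSC, Abca1 (-2.41), Lpl (-1.23) and Pltp (-1.21) were lower and Mylip (1.91) higher by the 2-fold rule. That is 1 of 8 higher and 3 lower, against 14.5% and 11.3% of 14496 genes. Abcg1 (0.65), Rnf145 (0.55) and Apoe (0.34) were above 0 and Lpcat3 (-0.25) below.

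In Type I over EPSC + T09, Abca1 was at -0.03 (-0.07 to 0.02), so its level 5 days into blastoid culture was within counting error of that in the treated EPSC. Abcg1 was at -1.69 (-1.81 to -1.57). Apoe (2.19), Mylip (1.41) and Lpcat3 (1.19) were more than 2-fold higher, which made 3 of 8 higher and 1 lower, against 22.7% and 18.1% of 14378 genes. Rnf145 (0.14), Pltp (-0.25) and Lpl (-0.71) lay within 2-fold.

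In Type III over EPSC + T09, Abca1 was at -5.28 (-5.51 to -5.08) and Abcg1 at -5.18 (-5.64 to -4.83), among the 55 lowest ratios of the 14395 genes examined. Lpl (-1.71) and Pltp (interval -1.11 to -0.90, with a level 2.006 times as high in EPSC + T09) were also lower by the rule, Rnf145 stood at -0.85, and Apoe (1.92) was higher. That is 1 of 8 higher and 4 lower, against 21.7% and 16.0% of genes. Mylip (0.05, -0.10 to 0.20) and Lpcat3 (0.04, -0.02 to 0.11) stayed within counting error of the treated EPSC. In Type III the transporters were thus low where these 2 genes were not. Type I and Type III share the EPSC + T09 library as their reference here, so the 2 sets of ratios are not independent of each other.

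**Figure D5:**
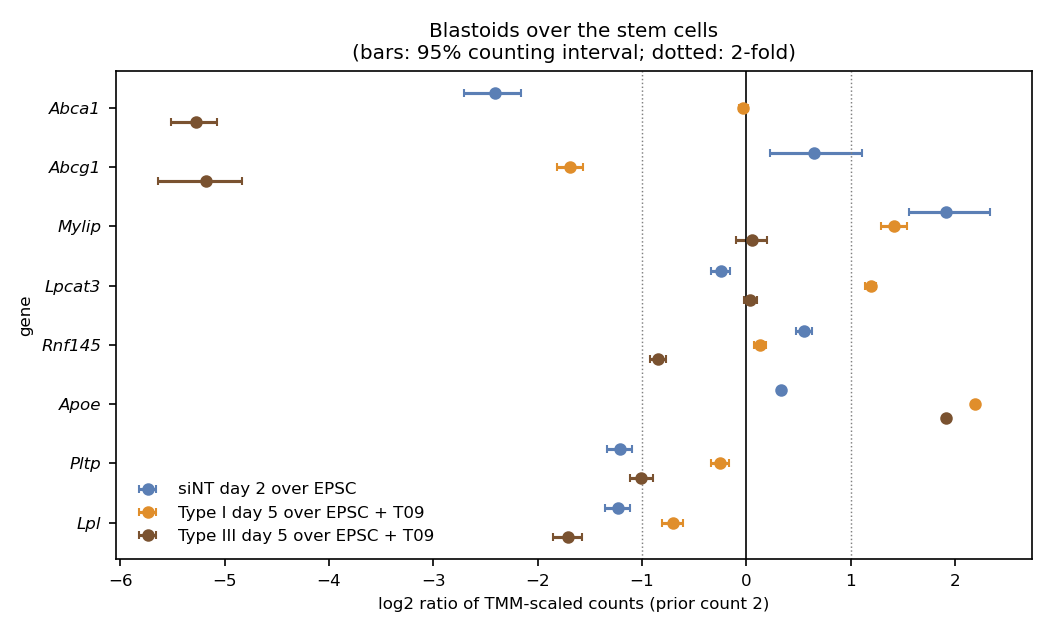
Log2 ratio (horizontal axis) for each of the 8 genes of siNT blastoids over EPSC (blue), Type I over EPSC + T09 (orange) and Type III over EPSC + T09 (brown), with 95% counting intervals and dotted lines at 2-fold. Abca1 lies near 0 in Type I and near -5 in Type III, Mylip and Lpcat3 near 0 in Type III, and Apoe above 0 in all 3.

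Levels of different genes can be set side by side only per length, here as CPM per kilobase of merged GENCODE M21 exons. On that scale Apoe was the highest of the 8 in each library, from 140 in ESC to 1683 in Type I. Lpcat3 came second in 7 of the 8 libraries, between 13.6 and 74.0, while in EPSC Pltp came before it. Abca1 moved most in this order. It had rank 6 in EPSC at 1.76, rank 4 in EPSC + T09 at 20.3, rank 3 in Type I at 19.9 and rank 7 in Type III at 0.520. Abcg1 was the lowest in ESC (0.921), EPSC (0.255), siNr1h2 (0.444), Type I (2.56) and Type III (0.221), Abca1 in siNT (0.328), and Lpl in ESC + T09 (1.89) and EPSC + T09 (5.30).

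Across the 8 libraries, the genes whose log2 level (CPM plus 0.5) was most like that of each member were read from 13934 genes, by Pearson r and with no test. The 8 points share treatments and starting cells, and r follows whichever libraries lie far out. Nearest to Abca1 was Srebf1 (r = 0.947), whose window holds the half-sites printed above, and nearest to Abcg1 was Fasn (0.946), followed by Scd2 (0.925), a desaturase gene. Nearest to Rnf145 were Abcg1 (0.922) and Scd2 (0.911). Srebf1 stood at 96.9 CPM in ESC, 284 in ESC + T09, 90.9 in EPSC and 289 in EPSC + T09, and at 67.1 in siNT, 71.3 in siNr1h2, 283 in Type I and 86.8 in Type III. Like Abca1 it was thus high in the 2 treated libraries and in Type I, but its untreated EPSC over ESC ratio was -0.09 (-0.16 to -0.02), against -1.48 for Abca1.

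Mylip was most like Cdc42ep4 (0.987) and Pex14 (0.960), and Lpcat3 like Rundc1 (0.954) and Atg9a (0.951). Apoe was most like Rhoc (0.997) and Glmp (0.995), Pltp like Hdac5 (0.977) and Glis2 (0.977), and Lpl like Ubac2 (0.984) and Dynll2 (0.977). The second gene for Abca1 was Caskin2 (0.940). Among the 8 themselves r was 0.90 for Abca1 with Abcg1, 0.89 for Mylip with Lpcat3, 0.82 for Abca1 with Pltp and 0.69 for Pltp with Lpl. Apoe had r between -0.18 and 0.55 with the other 7.

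The rest of the LXR pathway gives the setting of the 8 genes. By edgeR's quasi-likelihood test with Benjamini-Hochberg adjustment over all genes, 6 of 17 tested lipogenic LXR targets rose with T09 and 0 fell. They were Scd1 (log2 change 2.03), Srebf1 (1.61), Scd2 (1.53), Acaca (0.85), Acsl3 (0.82) and Fasn (0.81). Over all genes 0.0898% rose and 0.0138% fell. At an unadjusted p under 0.05, 10 of the 17 were higher and 2 lower, Mlxipl (-0.50) and Acacb (-0.38). The median of the 17 was 0.43, against -0.00 over all genes. Counts may be divided between the similar Scd genes in a way that is not stated. The list was drawn up with earlier results of these libraries known, so it is not independent evidence of the direction. Of 13 further LXR targets of sterol and lipoprotein handling, among them the HDL receptor gene Scarb1 and the lysosomal cholesterol exporters Npc1 and Npc2, 0 rose and 0 fell, with 0 higher and 1 lower (Ttc39b, -0.36) at an unadjusted p under 0.05. DESeq2 and limma-voom also gave 0 in each direction for that list. It holds 22 genes, of which edgeR tested 13. The fit gives 1 T09 term for both states, and the pair ratios of the list differed between them. In EPSC + T09 over EPSC 3 of 13 tested were above 0 (median -0.35), with Abcg4 at least 2-fold lower. In ESC + T09 over ESC 10 of 13 were above 0 (median 0.22), with 0 past 2-fold.

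The receptors and their partners, 13 tested, gave 0 higher and 0 lower with T09 in edgeR's test, and 0 and 3 at an unadjusted p under 0.05 (Ncor1, Ncoa1 and Crebbp). For EPSC over ESC, 1 was higher and 4 lower, the largest being Rxra (-1.27), the retinoid X receptor alpha gene, against 14.3% higher and 14.5% lower over all genes. Of 17 lipoprotein receptors, ligands and lipases outside the LXR targets, 0 passed for T09 in either direction. At an unadjusted p under 0.05, 1 was higher and 4 lower. DESeq2 tested 19 of that list and called 1 lower, Lrp2, for which edgeR's log2 change was -0.74. Of 14 genes of sterol storage and oxidation and of 16 relatives of Lpcat3, Mylip and Rnf145, 0 passed for T09, with 1 lower (Cyp7b1) and 0 at an unadjusted p under 0.05. DESeq2 gave 0 for both.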

How the data were processed

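RNA sequencing counts of 8 libraries were used, 1 per group. The table the authors deposited holds raw counts per gene symbol, as whole numbers that sum to different totals, and 5090 of the 24888 genes have 0 counts in each library. The submitters' processing notes name STAR, HTSeq, Cuffnorm and the mouse build mm9. Versions, annotation and strand setting are not given in the sources used here. The library kit is directional, per the labels' protocols.

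The 8 genes and all gene lists were chosen with earlier results of these data known. Counts were scaled by TMM factors (edgeR 4.0.16 in R 4.3.3). Each of 9 pairs of libraries gave log2 ratios (prior count 2) with 95% exact conditional Clopper-Pearson intervals. These cover counting error only, since each group has 1 library. Reads counted without molecular identifiers may repeat a molecule, so the intervals may be too narrow even for counting error. The 4 stem cell libraries also went into edgeR's quasi-likelihood fit of state plus treatment (filterByExpr, 1 residual degree of freedom, Benjamini-Hochberg threshold 0.05). In simulated counts of 14477 genes, 100 genes were given a 2-fold change, of which 97% were found, next to 5 false calls. That share does not measure how many real changes the test can find in these libraries. Scd3, with a T09 log2 change of 2.13 (SE 0.385), did not pass edgeR's quasi-likelihood test (adjusted p 0.147). A list with 0 genes passing is therefore not evidence that none of them changed. Exon lengths came from GENCODE M21, in which 24409 of the symbols were found, and promoter windows from RefSeq, both of GRCm38, a later build than that of the counts.

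Named were all 8 genes, Nr1h2, Nr1h3, for each pathway list the genes that passed the T09 test and otherwise up to 3 with the largest ratio, and the 2 genes most like each member. Ncor1, Scarb1, Npc1, Npc2 and other list genes named outside that rule were chosen after their values were seen. Alternatives were the size factors of DESeq2 1.42.0, library totals, prior counts of 0.5 and 10, thresholds of 1.5-fold, a count minimum of 100, no filter, DESeq2 and limma-voom (limma 3.58.1). No replicate exists, so none was left out. A gene of the lipoprotein receptor list is not reported here. Python 3.11.15 was used.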

Additional observations from a re-analysis of the deposited data

Results flagged for a closer look

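Lpl had T09 log2 ratios on different sides of 0 in the 2 stem cell states. It was 0.14 (0.05 to 0.23) in EPSC, from 50.4 to 55.5 CPM, and -0.30 (-0.44 to -0.15) in ESC, from 24.4 to 19.8 CPM. The ratios differed by 0.43 (0.26 to 0.60), against a median absolute difference of 0.22 over 12944 genes and a 90th percentile of 0.76. Mylip, Abcg1, Abca1 and Pltp differed more between the states, so Lpl stands out by its signs and not by the size of its difference. With 1 library per group the difference was not tested, and its interval covers counting error only.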

How the results depend on the processing

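Of the counts of members past 2-fold, 120 of 126 values over the alternatives stayed within 1.5 times the main count, and 279 of 288 log2 ratios of members moved by less than their counting interval. At a threshold of 1.5-fold, 6 genes were higher in ESC + T09 over ESC, 2 were higher and 3 lower in EPSC + T09 over ESC + T09, 2 were higher in siNT over EPSC and 2 were lower in Type I over EPSC + T09. With DESeq2's size factors 1 gene in place of 2 was higher in EPSC over ESC, and Abca1 in Type I over EPSC + T09 stood at 0.02 in place of -0.03. In the T09 fit over all genes, 23 were higher and 23 lower with no filter, which also tested 18824 genes, and DESeq2 called 16 lower. Lpcat3 in EPSC + T09, Lpl in Type I and Pltp in Type III passed 2-fold narrowly (2.001, 2.003 and 2.006 times), and Rnf145 in Type I missed it at 1.976 times, so counts that hold them turn on the threshold. No paired analysis was possible because each group has 1 library and the labels give no replicate numbers; the T09 fit holds the cell state as a term. Depth limits Abcg1 most, with 53 counts in Type III and 71 in EPSC, and Mylip in EPSC, with 70. The spread between cultures is unknown.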

Other observations

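Some genes of lipoprotein assembly and cholesterol storage had large ratios in the blastoids over the stem cells. Apob, the core protein of very-low-density lipoprotein, was counted 18 times in EPSC + T09 and 34896 times in Type I (972 CPM), a log2 ratio of 10.93. Among 20 tested receptors, ligands and lipases outside the LXR targets, 14 were at least 2-fold higher and 3 lower in Type I over EPSC + T09, and 14 of 21 were higher and 3 lower in Type III over it. Of 14 tested genes of sterol storage and oxidation, 7 were higher and 1 lower in Type I. Soat1 and Soat2 of that list, which esterify cholesterol for storage, were at 5.70 and 5.37 on the log2 scale in Type I. In siNT over EPSC on day 2, Apob was already at 7.97, Soat1 at 3.41 and Soat2 at 2.80. In Type I over EPSC + T09, 22.7% of all genes were higher and 18.1% lower, in Type III over it 21.7% and 16.0%, and in siNT over EPSC 14.5% and 11.3%. Markers of primitive and visceral endoderm were higher in the same comparisons, 13 of 13, with a median log2 ratio of 7.52 in Type I, 6.93 in Type III and 4.28 in siNT. Their part was not tested, and each value rests on single libraries.

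Type I was also set against Type III, where 1.93% of all genes were higher and 5.75% lower. Of 21 tested receptors, ligands and lipases 0 were higher and 2 lower (Apoc3, -2.16, and Angptl4, -1.01) in Type I, while Srebf1 (1.71), Scd2 (1.58) and Scd1 (1.27) of 17 lipogenic LXR targets were higher and Scd3 (-1.07) was lower. Of 13 further LXR targets 0 were higher and 3 lower (Abcb1a, -1.38, Smpdl3a, -1.36, and Apod, -1.36). Some of the lower ratios rest on few counts. The counts in Type I and Type III were 4 and 23 for Apoc3, whose interval was -4.64 to -1.10. They were 14 and 36 for Smpdl3a, 23 and 57 for Apod, and 27 and 54 for Scd3. Angptl4 had 64 and 120 and Abcb1a 155 and 372, against 10158 and 2852 for Srebf1. No test was possible for these pairs.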
